A study of Mus musculus with 19 samples.

Results

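The insulin signalling and FOXO genes described here are Insr, Irs1, Irs2, Pik3r1, Akt1, Akt2, Foxo1, Foxo3 and Trib1, taken by symbol from the deposited table, 9 of its 24537 genes. All 9 passed the filter on low counts. RNA with poly(A) tails was sequenced from hepatocytes, the parenchymal cells of the liver, which had been released by perfusing the organ in successive steps. The donors were 19 male mice of the inbred C57BL/6J strain with the wild-type genotype, and the labels name no treatment. Of these, 10 were young (5 months) and 9 were old (24 months). Each library came from 1 mouse and is called by its number in the labels. The first cull day held young mice 1180, 1182, 1184, 1186 and 1188 and old mice 1181, 1183, 1185, 1187 and 1189. The second cull day, 23 days later, held young mice 1235, 1237, 1239, 1243 and 1244 and old mice 1236, 1238, 1240 and 1242. Whether the mice had been fed or fasted is not given in the sources used here.

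In hepatocytes, insulin binds the receptor tyrosine kinase made from Insr, which phosphorylates the adaptor proteins IRS1 and IRS2. The adaptors recruit phosphoinositide 3-kinase, whose main regulatory subunit is made from Pik3r1, and the lipid it forms at the membrane activates the AKT kinases. AKT phosphorylates the transcription factors FOXO1 and FOXO3 and so keeps them out of the nucleus, where they otherwise activate genes of glucose production such as G6pc and Pck1, and also Igfbp1, Irs2 and Insr. Trib1 makes a pseudokinase that brings the ubiquitin ligase COP1 to the transcription factor C/EBP alpha and is known for its link to blood lipids. The libraries measure RNA only, so phosphorylation and protein were not seen.

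Because FOXO factors bind short promoter elements, the RefSeq promoters of the 9 genes on the GRCm38.p6 build (250 bases before to 50 after each start) were searched for 2 motifs on both strands. One was the core of the insulin response element, CAAAACA (reverse complement TGTTTTG), which 6.28% of the 32851 mouse promoters in the table held. The other was the FOXO consensus GTAAACA (reverse complement TGTTTAC), which 3.65% held. Entries were found for 7 of the 9 genes, with 12 promoters in all; Insr and Trib1 were not among them. Among these 7 genes, Irs1 held the first motif at 2 places, Irs2 held it once, and 1 of the 2 promoters of Akt1 held the second. The windows below run 5′ to 3′ on each gene's own strand with the motif in capitals, and the known FOXO targets Igfbp1 and G6pc are set beside the member genes for comparison. Pck1, another known target, was searched too and held neither motif in its 1 promoter.
Irs1, chr1:82291522-82291572, minus strand: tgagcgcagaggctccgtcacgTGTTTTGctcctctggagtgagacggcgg
Irs1, chr1:82291443-82291493, minus strand: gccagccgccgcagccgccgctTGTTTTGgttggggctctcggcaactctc
Irs2, chr8:11008938-11008988, minus strand: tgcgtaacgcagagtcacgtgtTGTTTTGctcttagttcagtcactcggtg
Akt1, chr12:112675017-112675067, minus strand: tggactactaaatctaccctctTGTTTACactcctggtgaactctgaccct
Igfbp1, chr11:7197657-7197707, plus strand: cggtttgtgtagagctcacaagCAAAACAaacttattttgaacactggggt
G6pc, chr11:101367520-101367570, plus strand: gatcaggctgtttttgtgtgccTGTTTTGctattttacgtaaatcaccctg
In Irs1 the motifs began 111 and 32 bases before the start, in Irs2 37 bases, in Akt1 161, in Igfbp1 108 and in G6pc 174. The RefSeq starts used here for Irs2 and Akt1 lie upstream of the 5′ ends that the deposited table gives for these genes. A match describes these letters only, and binding was not measured.

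Before the gene values, the libraries that stood apart are given. Counts in genes totalled 17381439 to 20287600 per library. Saa1, an acute phase gene of the liver named after its values were seen, was at 5113, 8281 and 3188 CPM in young mice 1184, 1186 and 1188 (CPM, counts divided by the library total after TMM scaling, which corrects for library composition). The other young mice were at 15.8 to 33.9 CPM and the old mice at 32.3 to 596 CPM. The hepatocyte markers summed to 120340 to 183208 CPM in young and 136464 to 224690 CPM in old mice, of which Alb made up 61168 to 116311 and 93212 to 157473 CPM. Of 13 tested hepatocyte markers 2 rose and 5 fell, with a median log2 fold change of -0.25. Markers of other liver cells were higher in old mice: 14 of 14 macrophage, 10 of 14 sinusoidal endothelial and 13 of 14 stellate cell markers rose. Their summed levels ran from 104 to 497 CPM in young and 71.0 to 3423 CPM in old mice for macrophages, from 205 to 367 and 218 to 694 for endothelial cells, and from 62.0 to 163 and 168 to 556 for stellate cells. Without old mouse 1187, which held the highest macrophage sum, 4 of 14 macrophage markers rose. T and NK cell markers summed to at most 0.992 CPM in young and 33.6 CPM in old mice, with none of them abundant enough to be tested. In bulk RNA, fewer cells of a type and less RNA per cell cannot be told apart. The mean log2 level of the other-cell markers, used below as a covariate, was 2.98 ± 0.483 (SD, n = 10) in young and 4.05 ± 0.811 (SD, n = 9) in old mice. Because this covariate differed with age, its effect and that of age cannot be fully told apart.

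Of the 9 genes, 3 were lower in old mice, namely Foxo3, Foxo1 and Pik3r1, and none was higher. With cull day as a covariate, edgeR called 30.9% of the 12269 genes tested at an adjusted p under 0.05, and 14.5% as lower in old mice. The share of the 9 genes called lower was 33.3%. The log2 fold change was negative for 7 of the 9, with a median of -0.15 against -0.0034 over all genes tested. The ages overlapped for each of the 9 genes over both cull days, whereas 1.7% of all tested genes showed no overlap.

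**Figure D1:**
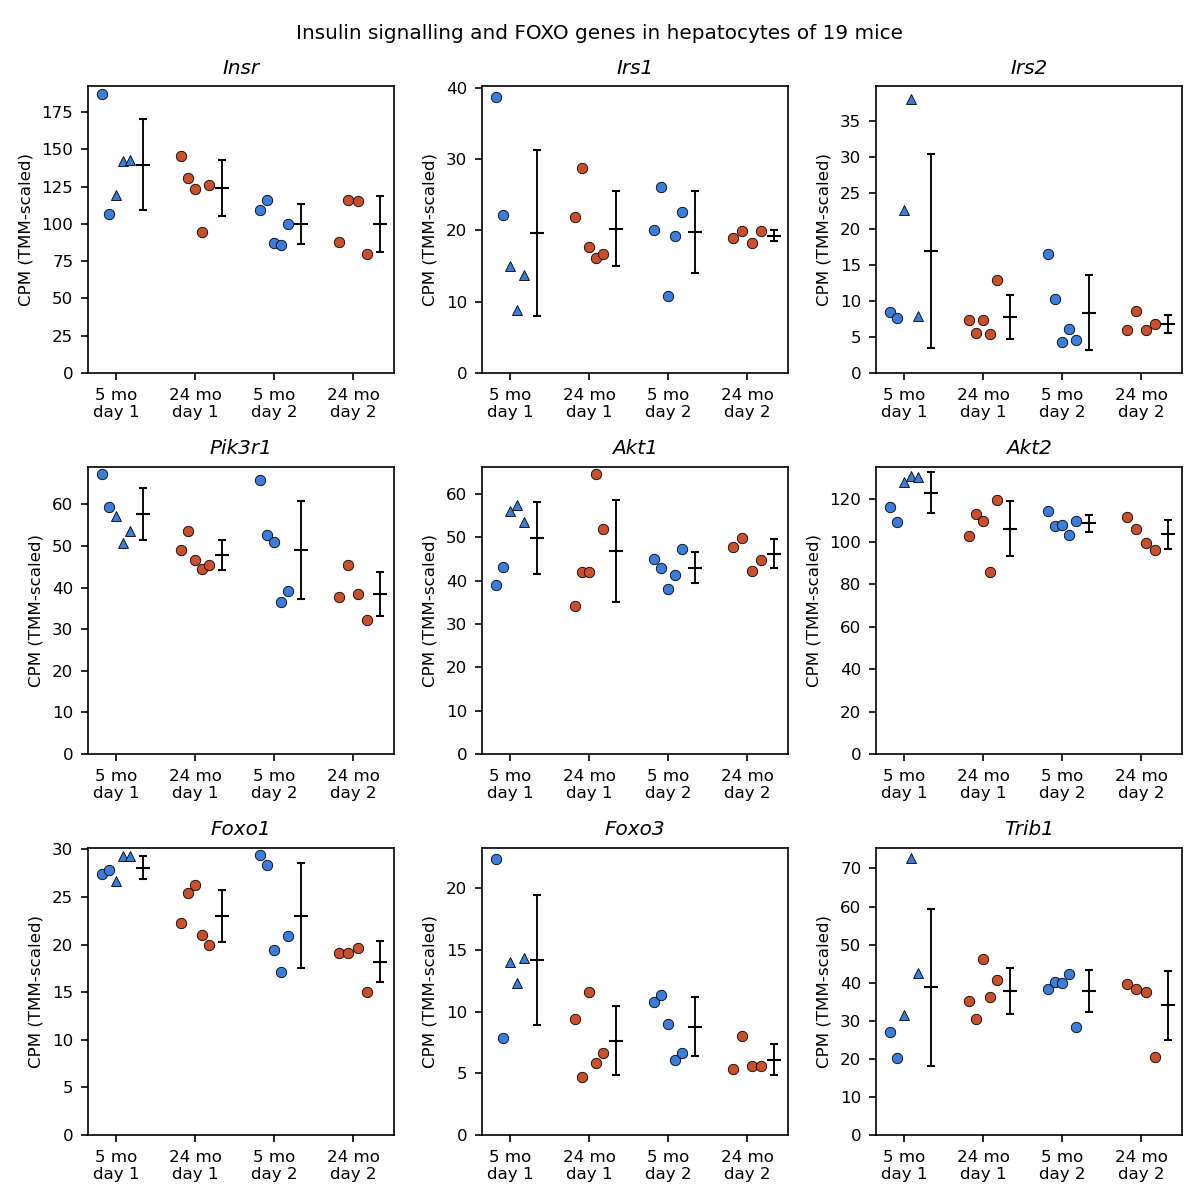
Level of each gene (vertical axis, CPM after TMM scaling) in each of 19 mice, by age and cull day; circles and triangles are mice, triangles are young mice 1184, 1186 and 1188, and the black marks show the mean and SD of each group of 4 or 5. For Foxo1, the first cull day's old mice spanned 19.9 to 26.2 CPM and its young mice 26.7 to 29.3 CPM. Its age effect was not called on that day alone (edgeR adjusted p = 0.0938). The highest Irs2 and Trib1 values were those of young mouse 1186.

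Coordinates are those of the deposited table on the mm10 build, counted from 1. Insr, which encodes the receptor (chromosome 8, 3150922 to 3279617, minus strand), was at 187, 107, 119, 142 and 143 CPM in the young mice of the first cull day, in the order of the mice given above. The old mice of that day were at 145, 131, 124, 94.5 and 126 CPM. On the second cull day the young mice were at 109, 116, 87.3, 86.0 and 100.1 CPM and the old at 87.6, 116, 115 and 79.98 CPM. The ages overlapped on both days, and the 2 highest values, in young mouse 1180 and old mouse 1181, came from the first. The means were 119.8 ± 30.7 CPM (SD, n = 10) in young and 113 ± 21.6 CPM (SD, n = 9) in old mice, a difference that did not pass the test (log2 fold change -0.093, SE 0.110, edgeR adjusted p = 0.549).

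Irs1, the first of the adaptors (chromosome 1, 82233105 to 82291439, minus strand), was at 38.7, 22.1, 15.1, 8.84 and 13.7 CPM in young and 21.9, 28.8, 17.6, 16.1 and 16.7 CPM in old mice of the first cull day. On the second day it was at 20.1, 26.1, 10.7, 19.2 and 22.6 CPM in young and 18.9, 19.9, 18.3 and 19.9 CPM in old mice. The young mice spread more widely than the old: young mouse 1180 was the highest of all and young mouse 1186 the lowest. The mean was 19.7 ± 8.64 CPM (SD, n = 10) in young and 19.8 ± 3.81 CPM (SD, n = 9) in old mice (log2 fold change 0.0042, SE 0.212, edgeR adjusted p = 0.99). Young mice 1184, 1186 and 1188 held 3 of the 4 young values that lay below every old mouse. Without these 3 mice the log2 fold change was -0.26 (edgeR adjusted p = 0.298).

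Irs2, the adaptor whose gene FOXO factors activate during fasting (chromosome 8, 10986964 to 11008430, minus strand), was at 8.43, 7.60, 22.7, 38.1 and 7.93 CPM in young and 7.38, 5.53, 7.38, 5.48 and 12.9 CPM in old mice of the first cull day. On the second day the young mice were at 16.6, 10.3, 4.24, 6.08 and 4.63 CPM and the old at 6.02, 8.65, 5.98 and 6.78 CPM. Young mice 1184, 1186 and 1235 lay above all 9 old mice, and the other 7 young mice overlapped with them. The mean was 12.7 ± 10.6 CPM (SD, n = 10) in young and 7.35 ± 2.33 CPM (SD, n = 9) in old mice, with the medians closer, at 8.18 and 6.78 CPM. The difference was the largest in size among the 9 genes and did not pass the test (log2 fold change -0.74, SE 0.336, edgeR adjusted p = 0.101). It rested on few mice: the log2 fold change was -0.44 without young mouse 1186 and -0.20 (edgeR adjusted p = 0.627) without 1184, 1186 and 1188. With the mean log2 level of the acute phase genes as a covariate it was -0.74 (edgeR adjusted p = 0.0355), and with that of the other-cell markers -1.19 (edgeR adjusted p = 0.0483). Irs2 overlaps 9530052E02Rik on the opposite strand, which held 93 counts over all 19 libraries against at least 77 of Irs2 in each.

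Pik3r1, the regulatory subunit of phosphoinositide 3-kinase (chromosome 13, 101680761 to 101768217, minus strand), fell by 19.3% in old mice. It was at 67.2, 59.5, 57.3, 50.6 and 53.7 CPM in young and 48.9, 53.5, 46.6, 44.5 and 45.4 CPM in old mice of the first cull day, where 4 of the 5 old mice lay below all young mice. On the second day it was at 66.0, 52.7, 50.9, 36.5 and 39.2 CPM in young and 37.8, 45.3, 38.4 and 32.3 CPM in old mice. There the ages overlapped, since young mice 1243 and 1244 were as low as the old. The mean was 53.3 ± 10.01 CPM (SD, n = 10) in young and 43.6 ± 6.43 CPM (SD, n = 9) in old mice (log2 fold change -0.31, SE 0.0964, edgeR adjusted p = 0.0217). The call was kept in all 19 fits that left out 1 mouse, and lost with the other-cell markers as a covariate, at a log2 fold change of -0.24 (edgeR adjusted p = 0.206). It was also lost when libraries were scaled by their totals alone, at -0.26 (edgeR adjusted p = 0.0643), and without the cull day term, at -0.29 (edgeR adjusted p = 0.0604).

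Akt1 and Akt2 encode the AKT kinases, of which Akt2 is the form most tied to insulin's control of glucose. Akt2 (chromosome 7, 27591552 to 27640826, plus strand) was at 116, 109, 128, 131 and 130.3 CPM in young and 103, 113, 109.7, 85.7 and 119 CPM in old mice of the first cull day. On the second day it was at 115, 107, 108, 103 and 109.8 CPM in young and 112, 106, 99.6 and 96.0 CPM in old mice. It varied little between mice, and 4 of the 9 old mice lay below all 10 young mice. The mean was 116 ± 10.4 CPM (SD, n = 10) in young and 105 ± 10.2 CPM (SD, n = 9) in old mice, which edgeR did not call (log2 fold change -0.15, SE 0.0629, edgeR adjusted p = 0.0829) and DESeq2 did, at an adjusted p of 0.0321. Akt1 (chromosome 12, 112653821 to 112674276, minus strand) was at 38.9, 43.2, 56.1, 57.5 and 53.5 CPM in young and 34.1, 42.1, 41.9, 64.7 and 51.9 CPM in old mice of the first cull day. The second day's values were 45.1, 42.9, 38.0, 41.4 and 47.4 CPM in young and 47.9, 49.8, 42.3 and 44.7 CPM in old mice. The highest value was that of old mouse 1187, and the ages overlapped throughout. The means were 46.4 ± 7.01 CPM (SD, n = 10) and 46.6 ± 8.59 CPM (SD, n = 9), with no call (log2 fold change 0.0041, SE 0.103, edgeR adjusted p = 0.98). The microRNA gene Mir6939, which overlaps Akt1 on the same strand, held 45.5 counts over all libraries.

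Foxo1, the main FOXO factor of glucose production in the liver (chromosome 3, 52268337 to 52350109, plus strand), fell by 19.5% in old mice. On the first cull day it was at 27.4, 27.8, 26.7, 29.3 and 29.3 CPM in young and 22.3, 25.4, 26.2, 21.0 and 19.9 CPM in old mice. The ages did not overlap on that day, but the share of all tested genes without overlap on 1 day was not counted, so nothing is drawn from it. Foxo1 was not called on that day alone (edgeR adjusted p = 0.0938). On the second day it was at 29.4, 28.3, 19.4, 17.2 and 20.9 CPM in young and 19.1, 19.1, 19.7 and 15.0 CPM in old mice. Young mice 1235 and 1237 stayed at the level of the first day, while 1239, 1243 and 1244 overlapped with or came close to the old mice. Over both days 7 of the 10 young mice lay above all 9 old mice. The mean was 25.6 ± 4.60 CPM (SD, n = 10) in young and 20.9 ± 3.44 CPM (SD, n = 9) in old mice (log2 fold change -0.31, SE 0.0938, edgeR adjusted p = 0.0176). The call was kept in all 19 fits that left out 1 mouse. It was lost with the other-cell markers as a covariate, at a log2 fold change of -0.29 (edgeR adjusted p = 0.13), and without young mice 1184, 1186 and 1188, at -0.31 (edgeR adjusted p = 0.0531). Scaling by library totals gave -0.27 (edgeR adjusted p = 0.0545) and the fit without cull day -0.29 (edgeR adjusted p = 0.0634).

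Foxo3, the second FOXO factor among the 9 genes (chromosome 10, 42185786 to 42276742, minus strand), fell by 39.3% in old mice. On the first cull day it was at 22.4, 7.83, 14.1, 12.3 and 14.3 CPM in young and 9.38, 4.70, 11.6, 5.85 and 6.68 CPM in old mice. On the second it was at 10.8, 11.4, 8.98, 6.06 and 6.64 CPM in young and 5.33, 7.997, 5.59 and 5.56 CPM in old mice. Of the 9 old mice, 5 lay below all young mice, and young mouse 1180 was far above every other mouse. The mean was 11.5 ± 4.80 CPM (SD, n = 10) in young and 6.96 ± 2.26 CPM (SD, n = 9) in old mice (log2 fold change -0.72, SE 0.196, edgeR adjusted p = 0.0109). Without young mouse 1180 the fall was smaller, at a log2 fold change of -0.59, and it was still called. The call was lost with the other-cell markers as a covariate, at -0.68 (edgeR adjusted p = 0.106), and kept without young mice 1184, 1186 and 1188, at -0.71 (edgeR adjusted p = 0.0357). None of the 3 falls was called on a cull day taken alone: for Foxo3 the log2 fold changes were -0.89 (edgeR adjusted p = 0.102) on the first and -0.51 (edgeR adjusted p = 0.112) on the second.

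Trib1, the pseudokinase (chromosome 15, 59648654 to 59657099, plus strand), was at 27.1, 20.2, 31.5, 72.7 and 42.6 CPM in young and 35.3, 30.6, 46.3, 36.2 and 40.6 CPM in old mice of the first cull day. On the second it was at 38.3, 40.2, 39.9, 42.2 and 28.4 CPM in young and 39.7, 38.5, 37.4 and 20.5 CPM in old mice. Apart from young mouse 1186 at 72.7 CPM, the ages spanned nearly the same range. The mean was 38.3 ± 14.2 CPM (SD, n = 10) in young and 36.1 ± 7.25 CPM (SD, n = 9) in old mice, with no call (log2 fold change -0.091, SE 0.186, edgeR adjusted p = 0.735). Without young mice 1184, 1186 and 1188 the log2 fold change was 0.16 (edgeR adjusted p = 0.54).

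**Figure D2:**
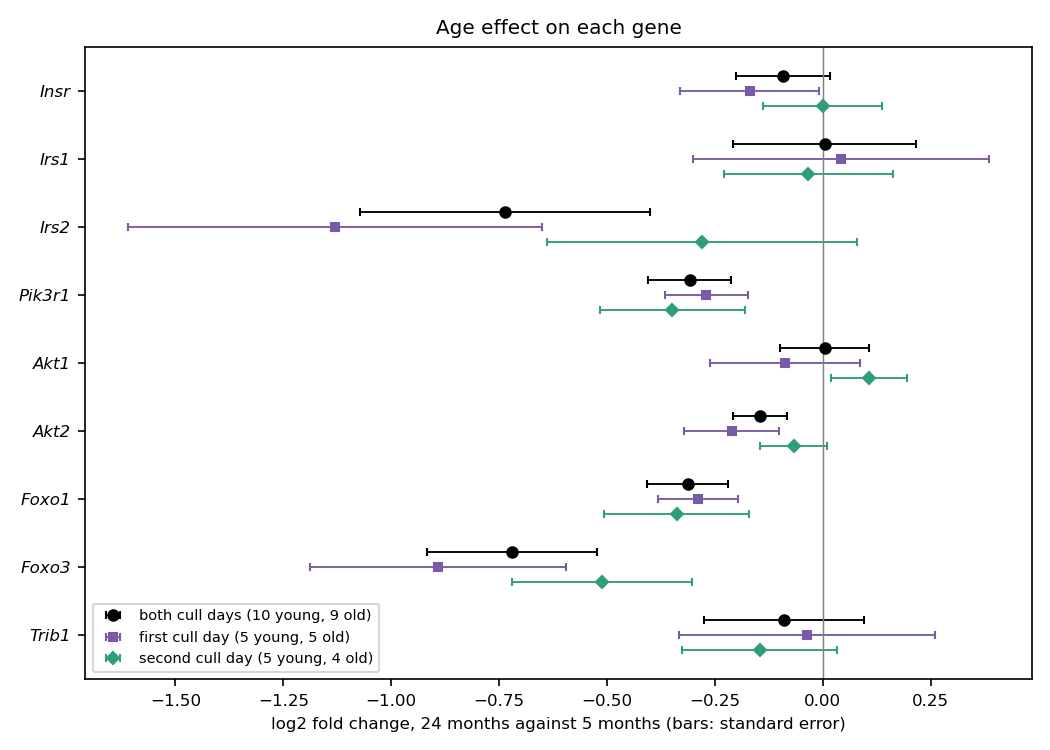
Age effect on each gene (horizontal axis, log2 fold change of 24 months against 5 months; bars, standard error) from all mice and from each cull day alone. Foxo3, Foxo1 and Pik3r1 lie below 0 in all 3 fits, and Irs2 moves from -1.13 (first day) to -0.28 (second day).

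Whether the age effect differed between the cull days was tested with an interaction term, for which edgeR called 0 of 12269 genes (0%). Without adjustment 799 genes had a p under 0.05, and DESeq2 called 10. Among the 9 genes the unadjusted edgeR p ran from 0.212 to 0.869. The log2 fold change of Pik3r1 was -0.27 on the first day and -0.35 on the second, and that of Foxo1 was -0.29 and -0.34. Irs2, at -1.13 and -0.28, differed most between the days in size, with a standard error of 0.656 for the difference of 0.85.

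Cull day was tested in the same fit as age. All 9 genes had a negative log2 fold change on the second day against the first, with a median of -0.27 against -0.03 over all genes. The genes called lower were Insr (log2 fold change -0.40, SE 0.110, edgeR adjusted p = 0.0266) and Foxo1 (log2 fold change -0.31, SE 0.0938, edgeR adjusted p = 0.0385). Over all genes 12.3% were called in either direction and 6.55% as lower on the second day. Insr averaged 131.9 ± 25.3 CPM on the first day (SD, n = 10) and 99.8 ± 14.8 CPM on the second (SD, n = 9), and 8 of the 10 first-day mice lay above every second-day mouse. Both calls lay near the threshold. Leaving out 1 mouse gave log2 fold changes of -0.45 to -0.34 for Insr, with an edgeR adjusted p of at most 0.058, and the call was lost without young mouse 1239, old mouse 1242 or young mouse 1243. For Foxo1 it gave -0.36 to -0.27, with an edgeR adjusted p of at most 0.082, and the call was lost in 11 of the 19 fits. Without young mice 1184, 1186 and 1188, which were all culled on the first day, edgeR called 0 genes for cull day, the lowest adjusted p being 0.057, while 2474 of 12354 had p under 0.05 before adjustment. The adjusted p in edgeR was then 0.113 for Insr and 0.159 for Foxo1, at log2 fold changes of -0.41 and -0.31. What differed between the days is not given in the sources used here.

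**Figure D3:**
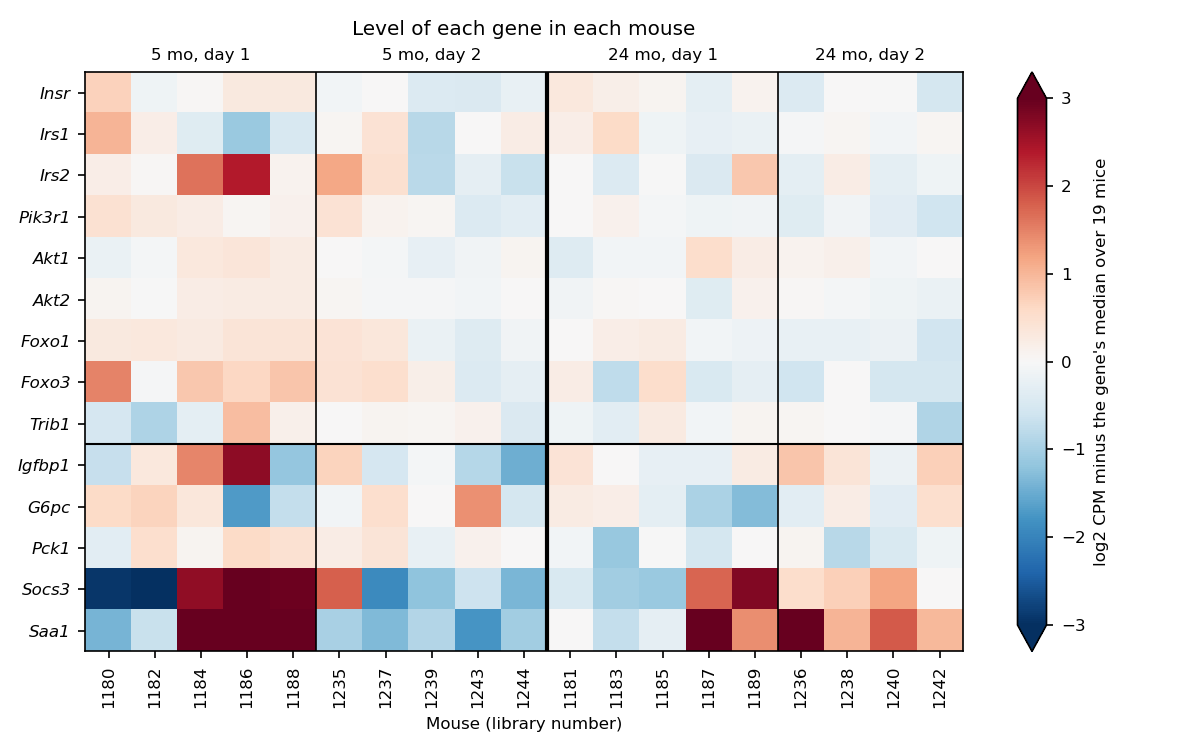
Level of the 9 genes and of Igfbp1, G6pc, Pck1, Socs3 and Saa1 in each mouse, as log2 CPM minus the gene's median over 19 mice (colour), with mice in columns by age and cull day; the scale ends at 3 on either side. Young mice 1184, 1186 and 1188 are far above the median for Saa1 and Socs3, and young mouse 1186 is high for Irs2, Trib1 and Igfbp1 and low for Irs1 and G6pc.

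Young mouse 1186 held the highest value of any mouse for Irs2, Trib1, Igfbp1, Socs3 and Saa1 and the lowest for Irs1 and G6pc. Igfbp1, a liver-secreted binding protein for insulin-like growth factors and a classical FOXO1 target, was at 33.7, 68.2, 151, 348 and 24.5 CPM in the young mice of the first day and 85.9, 38.7, 52.2, 30.0 and 19.7 CPM in those of the second. In old mice it was at 72.6, 54.5, 46.3, 45.7 and 64.8 CPM on the first day and 97.0, 70.9, 48.4 and 90.1 CPM on the second. Young mice 1184, 1186 and 1235 held the 3 highest young values of both Irs2 and Igfbp1. Socs3, a suppressor of cytokine signalling that also binds the insulin receptor and was named after its values were seen, was at 1.24, 1.15, 59.2, 179 and 71.4 CPM in the young mice of the first day. It was at 32.5, 2.49, 4.05, 6.06 and 3.60 CPM in those of the second. The old mice were at 6.84, 4.49, 4.34, 31.5 and 64.1 CPM on the first day and 13.5, 15.3, 21.0 and 9.33 CPM on the second. High Socs3 was shared by young mice 1184, 1186, 1188 and 1235 and old mice 1187 and 1189. The part of the acute phase genes in the values of Irs1, Irs2 and Trib1 was not tested beyond the fits above.

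Set per length of the transcript model (CPM per kilobase), the order of the 9 genes by their mean over all 19 mice was Akt2, Akt1, Insr, Trib1, Pik3r1, Foxo1, Foxo3, Irs2 and Irs1. Akt2 was at 24.4 ± 2.53 and Akt1 at 17.4 ± 2.83 CPM per kilobase (SD, n = 19), Akt2 being above Akt1 in 18 of 19 mice. Insr was at 12.5 ± 2.80, Trib1 at 9.27 ± 2.79 and Pik3r1 at 7.07 ± 1.40 CPM per kilobase. Foxo1 was at 4.21 ± 0.839, Foxo3 at 3.24 ± 1.52, Irs2 at 2.53 ± 2.03 and Irs1 at 2.16 ± 0.722. Irs2 had the higher mean of these last 2 genes but was above Irs1 in only 5 of 19 mice. The gaps between Trib1 and Pik3r1, Foxo1 and Foxo3, Foxo3 and Irs2, and Irs2 and Irs1 were each smaller than the larger of the pair's SDs.

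For 3 pairs of related genes the log2 ratio per length within each mouse was compared between ages, with the ages relabelled within each cull day in 31752 ways, which is all of them. The ratio of Foxo1 to Foxo3 was -0.65, 0.87, -0.026, 0.29 and 0.082 in young and 0.30, 1.46, 0.23, 0.89 and 0.62 in old mice of the first cull day. On the second it was 0.50, 0.36, 0.16, 0.54 and 0.69 in young and 0.88, 0.30, 0.85 and 0.47 in old mice. It was higher in old mice by 0.38 on average, which did not pass the exact two-sided permutation test (p = 0.0535, adjusted over 3 ratios 0.161). Of the 19 repeats that left out 1 mouse, only 1 passed. That was the repeat without young mouse 1182, at 0.47 higher with an adjusted exact p of 0.0423. The highest adjusted exact p of the 19 was 0.293. The ratio of Akt2 to Akt1 differed by -0.15 (exact p = 0.216, adjusted 0.226), with old mouse 1187 at -0.36 and every other mouse between 0.33 and 0.83. The ratio of Irs2 to Irs1 differed by -0.59 (exact p = 0.226, adjusted 0.226) and ranged from -1.07 to 3.29 in young and from -1.17 to 0.82 in old mice. Its direction turned to 0.16 without young mice 1184, 1186 and 1188.

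The other genes of the pathway were taken from 8 lists, which held 172 tested genes besides the 9. Of these, 21 rose and 40 fell with age, with a median log2 fold change of -0.11. The background over all 12269 tested genes was 2005 higher and 1780 lower, which is 30.9% in either direction and 14.5% lower. Each list count below stands against these shares. From each list the 3 genes of smallest p are named below, with some others named after their values were seen. With the mean log2 level of the other-cell markers as a covariate, the calls of Igf1r, Ptpn11, Furin, Rptor, Usp7, Ctgf, Rfwd2 and Lpl were lost. So were those of Gab2, Dok1, Dok4, Pdpk1, Pik3cd, Cat, Sesn3, Map1lc3b and Bnip3l, which were named after their values were seen. The covariate was itself higher on average in old mice, and why these calls were lost was not tested.

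Among receptors and proximal adaptors 4 of 19 tested genes rose and 3 fell, with a median log2 fold change of -0.09. Igf1r, the receptor for insulin-like growth factor and scarce in hepatocytes, rose, from a young mean of 0.690 ± 0.230 CPM (SD, n = 10) to an old mean of 1.52 ± 0.589 CPM (SD, n = 9) (log2 fold change 1.16, SE 0.242, edgeR adjusted p = 0.00224). Its log2 fold change given the other-cell markers was 0.49 (edgeR adjusted p = 0.134). Ptpn11, the phosphatase SHP2 that binds IRS proteins, fell (log2 fold change -0.31, SE 0.0771, edgeR adjusted p = 0.00625), and so did Furin, the protease that processes the insulin receptor precursor (log2 fold change -0.32, SE 0.0854, edgeR adjusted p = 0.0095). Gab2, Dok1 and Dok4, adaptors named after their values were seen, rose by log2 fold changes of 1.11, 1.43 and 0.50. With the other-cell markers as a covariate these were -0.021, -0.41 and 0.26. Dok1 kept its call in 13 of the 19 fits that left out 1 mouse and was at 0.67 (edgeR adjusted p = 0.112) without old mouse 1187. Its call was also lost without young mice 1184, 1186 and 1188 (edgeR adjusted p = 0.0699).

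Of 23 tested inhibitors of insulin signalling, 4 rose and 4 fell, with a median of 0.0070. Enpp1, a membrane enzyme that inhibits the insulin receptor, was at 30.9, 26.3, 24.3, 30.5 and 23.7 CPM in young and 45.6, 37.3, 40.5, 34.7 and 38.7 CPM in old mice of the first cull day. On the second day it was at 18.6, 19.97, 19.8, 19.2 and 20.5 CPM in young and 33.6, 32.7, 31.1 and 33.8 CPM in old mice. Every one of the 9 old mice was above the highest young mouse (log2 fold change 0.63, SE 0.0650, edgeR adjusted p = 9.28e-06), and with the other-cell markers as a covariate the log2 fold change was 0.67 (edgeR adjusted p = 1.91e-04). Inpp5k, a phosphatase of the lipid made by phosphoinositide 3-kinase, rose (log2 fold change 0.34, SE 0.0820, edgeR adjusted p = 0.00509). Ppp2ca, the catalytic subunit of protein phosphatase 2A, fell (log2 fold change -0.29, SE 0.0571, edgeR adjusted p = 0.00159). Trib3, a relative of Trib1 that binds AKT, did not pass (log2 fold change 0.33, SE 0.235, edgeR adjusted p = 0.3).

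In the list of phosphoinositide 3-kinase and AKT genes 5 of 22 rose and 7 fell, with a median of -0.05. Without young mice 1184, 1186 and 1188, 3 rose and 4 fell. Pik3r3, another regulatory subunit, fell, from a young mean of 2.44 ± 1.09 CPM (SD, n = 10) to an old mean of 1.31 ± 0.383 CPM (SD, n = 9) (log2 fold change -0.90, SE 0.194, edgeR adjusted p = 0.00276), beside the fall of Pik3r1. Without young mice 1184, 1186 and 1188 the young mean of Pik3r3 was 1.81 ± 0.415 CPM (SD, n = 7). Pik3c2g, a class 2 lipid kinase of the liver, rose (log2 fold change 0.61, SE 0.131, edgeR adjusted p = 0.00253). Hsp90aa1, a chaperone of AKT, fell (log2 fold change -0.86, SE 0.202, edgeR adjusted p = 0.00485), and without young mice 1184, 1186 and 1188 its log2 fold change was -0.45 (edgeR adjusted p = 0.054). Pdpk1, the kinase that activates AKT, fell (log2 fold change -0.36, edgeR adjusted p = 0.00757), while the leukocyte-enriched catalytic subunit gene Pik3cd rose (log2 fold change 1.86, edgeR adjusted p = 0.00886). Pik3cd was at 1.15 (edgeR adjusted p = 0.0242) without old mouse 1187 and at -0.13 (edgeR adjusted p = 0.625) given the other-cell markers. Both genes were named after their values were seen.

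Downstream of AKT, 2 of 26 tested genes of the mTOR complexes and AKT substrates rose and 10 fell, with a median of -0.11. Without old mouse 1187, 7 fell. Mapkap1, a subunit of the mTOR complex that phosphorylates AKT, was at 38.8, 37.1, 42.6, 45.4 and 43.2 CPM in young and 31.3, 33.9, 35.9, 29.9 and 34.4 CPM in old mice of the first cull day, and over both days each of the 9 old mice was below the lowest young mouse (log2 fold change -0.29, SE 0.0539, edgeR adjusted p = 0.00106). Rptor, a subunit of the other mTOR complex, also fell (log2 fold change -0.40, SE 0.0863, edgeR adjusted p = 0.00273). Tbc1d4, an AKT substrate that controls glucose transporter traffic in muscle and fat, rose (log2 fold change 1.08, SE 0.109, edgeR adjusted p = 7.59e-06). It averaged 2.39 ± 0.424 CPM (SD, n = 10) in young and 5.07 ± 0.714 CPM (SD, n = 9) in old mice, each of the 9 old mice being above the highest young mouse.

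**Figure D4:**
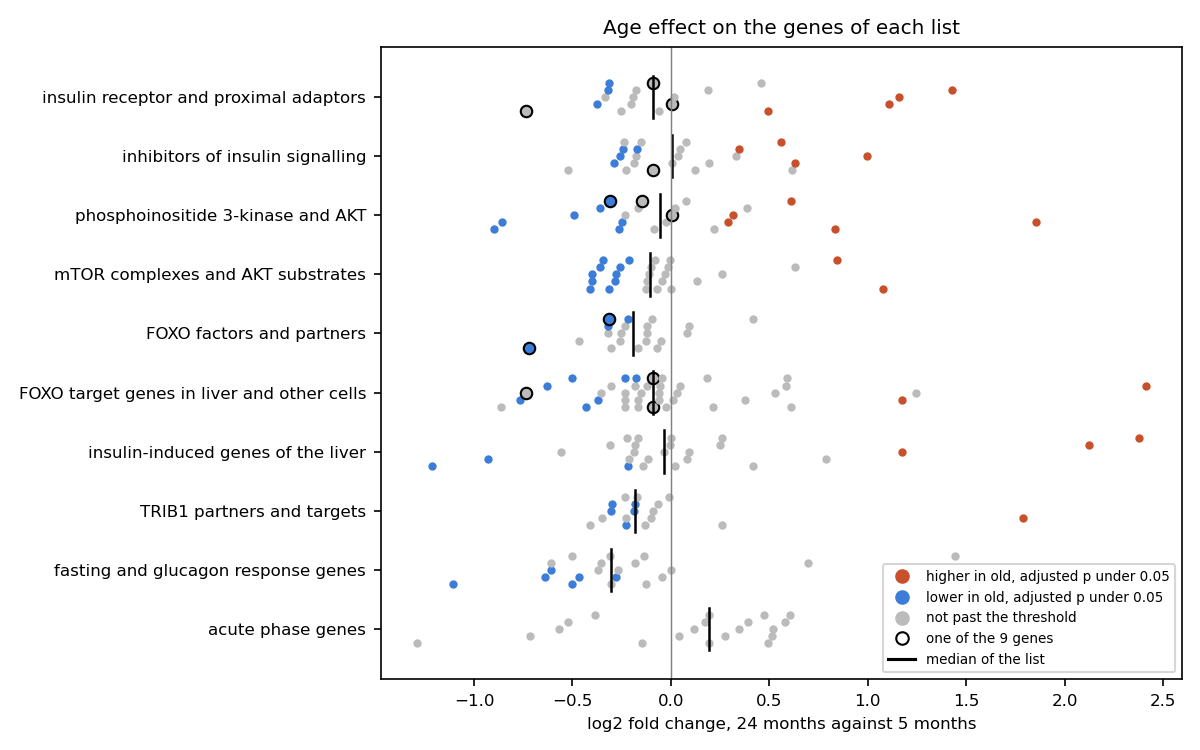
Age effect (horizontal axis, log2 fold change of 24 months against 5 months) on each tested gene of the 8 pathway lists and of the fasting and acute phase lists; points are genes, coloured where edgeR called them at an adjusted p under 0.05, ringed where they are among the 9 genes, and black bars are medians. The 4 called genes of the FOXO factor list, Foxo1 and Foxo3 among them, and the 6 of the fasting list all fell. No acute phase gene was called with all mice. Over all tested genes 14.5% were called lower.

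Of 20 tested FOXO factors and partners, 4 fell and none rose, with a median of -0.19, and 17 had a negative log2 fold change. Over all tested genes 14.5% were called lower, and the 4 include Foxo1 and Foxo3, already counted above. Besides Foxo1 and Foxo3 these were Ywhag, an adaptor that holds phosphorylated FOXO proteins in the cytoplasm (log2 fold change -0.32, SE 0.0718, edgeR adjusted p = 0.00374), and Usp7, a deubiquitinase that acts on FOXO proteins (log2 fold change -0.22, SE 0.0574, edgeR adjusted p = 0.00945). Ppargc1a, the coactivator with which FOXO1 drives glucose production, did not pass (log2 fold change -0.30, SE 0.234, edgeR adjusted p = 0.342).

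Among 39 tested FOXO target genes 2 rose and 7 fell, with a median of -0.09. Sod2, the mitochondrial superoxide dismutase and a target of FOXO3, was at 186, 184, 208, 213 and 194 CPM in young and 156, 152, 145, 131 and 128 CPM in old mice of the first cull day. On the second it was at 179, 185, 199, 212 and 185 CPM in young and 154, 134, 139 and 162 CPM in old mice, so each of the 9 old mice was below the lowest young mouse (log2 fold change -0.43, SE 0.0594, edgeR adjusted p = 9.38e-05). Klf15, a transcription factor of amino acid breakdown, fell (log2 fold change -0.63, SE 0.107, edgeR adjusted p = 4.57e-04). Cat, Sesn3, Map1lc3b and Bnip3l, which encode catalase, sestrin 3 and a pair of autophagy proteins, fell with log2 fold changes of -0.37, -0.76, -0.24 and -0.17. Sesn3 kept its call in 9 and Bnip3l in 13 of the 19 fits that left out 1 mouse, and without young mice 1184, 1186 and 1188 the calls of Sesn3 and Map1lc3b were lost. Pdk4, the kinase that shuts off pyruvate dehydrogenase in fasting, rose, from a young mean of 7.35 ± 4.09 CPM (SD, n = 10) to an old mean of 16.0 ± 6.59 CPM (SD, n = 9) (log2 fold change 1.17, SE 0.321, edgeR adjusted p = 0.0112). Its log2 fold change was 1.84 (edgeR adjusted p = 0.00256) given the other-cell markers and 0.74 (edgeR adjusted p = 0.0639) without young mice 1184, 1186 and 1188. These 5 genes were named after their values were seen. Pck1, the enzyme that commits to glucose production, fell (log2 fold change -0.50, SE 0.161, edgeR adjusted p = 0.0243), but not past the threshold without young mice 1184, 1186 and 1188, at -0.42 (edgeR adjusted p = 0.0983). G6pc, the last enzyme of glucose production, did not pass (log2 fold change -0.36, SE 0.2999, edgeR adjusted p = 0.387), and neither did Igfbp1 (log2 fold change -0.23, SE 0.453, edgeR adjusted p = 0.722). Ctgf, a matrix-associated growth factor, rose, from a young mean of 0.937 ± 0.491 CPM (SD, n = 10) to an old mean of 5.13 ± 4.87 CPM (SD, n = 9) (log2 fold change 2.41, SE 0.460, edgeR adjusted p = 0.0012), and given the other-cell markers its log2 fold change was 1.01 (edgeR adjusted p = 0.109).

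The list of genes that insulin induces in the liver held 3 of 25 higher and 3 lower, with a median of -0.03. Over all tested genes 30.9% were called in either direction and 14.5% as lower. Pnpla3, a lipid droplet protein under SREBP control, rose, from a young mean of 2.07 ± 1.55 CPM (SD, n = 10) to an old mean of 10.2 ± 5.85 CPM (SD, n = 9) (log2 fold change 2.38, SE 0.429, edgeR adjusted p = 7.54e-04). Its neighbour and relative Pnpla5 rose too (log2 fold change 2.12, SE 0.441, edgeR adjusted p = 0.00216). Pnpla5 was scarce, at 0.376 ± 0.227 CPM (SD, n = 10) in young and 1.69 ± 1.06 CPM (SD, n = 9) in old mice, and was not tested on the first cull day alone. For each of these genes 1 old mouse lay below all young mice, while 7 old mice for Pnpla3 and 6 for Pnpla5 lay above them. Lpin1, a phosphatidate phosphatase, fell (log2 fold change -1.21, SE 0.314, edgeR adjusted p = 0.00815). Srebf1, the master regulator of fatty acid synthesis, was at 197 ± 63.9 CPM (SD, n = 10) in young and 201 ± 43.5 CPM (SD, n = 9) in old mice (log2 fold change 0.022, SE 0.172, edgeR adjusted p = 0.934).

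Of 17 tested partners and targets of TRIB1, 1 rose and 5 fell, with a median of -0.18. Rfwd2, which encodes the ubiquitin ligase COP1, fell (log2 fold change -0.30, SE 0.0624, edgeR adjusted p = 0.00204), and its log2 fold change with the other-cell markers as a covariate was -0.15 (edgeR adjusted p = 0.139). Map2k1, which encodes the kinase MEK1, fell (log2 fold change -0.18, SE 0.0519, edgeR adjusted p = 0.0132). Cebpa, the main substrate of the TRIB1 and COP1 pair, was at 432 ± 70.2 CPM (SD, n = 10) in young and 364 ± 46.2 CPM (SD, n = 9) in old mice and did not pass (log2 fold change -0.23, SE 0.0895, edgeR adjusted p = 0.06). Lpl, lipoprotein lipase, rose (log2 fold change 1.79, SE 0.467, edgeR adjusted p = 0.0087), with old mouse 1187 at 135 CPM and the other old mice at 5.01 to 32.0 CPM. Without old mouse 1187 its log2 fold change was 0.97 (edgeR adjusted p = 0.0244), and given the other-cell markers it was -0.21 (edgeR adjusted p = 0.686).

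A list of genes of the response to fasting and glucagon, which oppose insulin, was read beside the pathway: 6 of 20 fell and none rose, with a median of -0.31. Pdk4, which rose, stands in the list of FOXO targets and not in this list. Tat, tyrosine aminotransferase, fell, from a young mean of 1647 ± 417 CPM (SD, n = 10) to an old mean of 758 ± 215 CPM (SD, n = 9), with 8 of 9 old mice below all young mice (log2 fold change -1.10, SE 0.179, edgeR adjusted p = 3.24e-04). Cps1, the first enzyme of the urea cycle, fell as well (log2 fold change -0.64, SE 0.129, edgeR adjusted p = 0.00177). Of the 20 acute phase genes, edgeR called 0 with all mice, at a median of 0.19, with 2 at an unadjusted p under 0.05 and 1 called by DESeq2. The 3 with the smallest p were Crp (log2 fold change -0.38, SE 0.154, edgeR adjusted p = 0.0651), Itih4 (log2 fold change 0.52, SE 0.240, edgeR adjusted p = 0.106) and Hamp (log2 fold change 0.39, SE 0.213, edgeR adjusted p = 0.17). Without young mice 1184, 1186 and 1188, 17 of the 20 were called higher in old mice. The mean log2 level of the acute phase genes was at least 9.84 in each of these 3 mice. Among the remaining young mice it was at most 7.44, and in old mice it ran from 7.31 to 9.28. Leaving the 3 out therefore lowers the young level of the very genes counted, so the count of 17 cannot serve as a test of age. The second cull day held none of the 3, and edgeR called 2389 of 12362 genes on it alone. There Itih4 (log2 fold change 1.08, edgeR adjusted p = 3.71e-04) and Saa1 (3.34, edgeR adjusted p = 9.98e-04) were called higher in old mice. Crp (-0.036, edgeR adjusted p = 0.802), Hamp (0.33, edgeR adjusted p = 0.209) and Socs3 (0.61, edgeR adjusted p = 0.543) were not called.

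As a description, the genes whose log2 CPM followed each of the 9 most closely over the 19 mice were ranked among the other 12268 tested genes by Pearson's r. These points share age, cull day and library, so r carries no test. Insr was followed most closely by Ptprf (r = 0.918), Irs1 by Cnksr3 (0.854), Irs2 by Raph1 (0.893) and Pik3r1 by Ube3b (0.871). Akt1 was followed by Ptpn1 (0.885), Akt2 by Arfgap2 (0.893), Foxo1 by Cpeb2 (0.901), Foxo3 by Vps13c (0.919) and Trib1 by Irf2bpl (0.888). Ptprf and Ptpn1 encode tyrosine phosphatases known to act on the insulin receptor. The genes ranked second were nearly as close, at r = 0.915 for Insr and 0.880 for Akt1. Within the second cull day r was 0.906 for Insr with Ptprf, 0.612 for Akt1 with Ptpn1 and 0.529 for Akt2 with Arfgap2. Within the 9 genes the closest pair was Pik3r1 and Foxo1 (r = 0.851, Spearman's rho 0.825), with r = 0.644 within the first cull day and 0.867 within the second, and Foxo1 ranked 5 of 12268 for Pik3r1. Irs1 and Trib1 were the most opposed pair (r = -0.61), at -0.76 within the first cull day and -0.18 within the second. Their r was -0.34 without the 2 mice farthest from the median of Irs1 and -0.43 without the 2 farthest from that of Trib1.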

How the data were processed

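The authors deposited 1 table of estimated counts per gene for 19 libraries, in which other columns hold the transcript length used for each gene. Per the file headers it was written by HOMER for mm10, counting reads in exons of RefSeq transcripts, with transcripts condensed to genes. STAR and GRCm38 are also named, per the submitters' processing notes. The library kit was stranded, per the labels' protocols. The aligner's version, the handling of reads with several matches and the strand setting of the counting are not given in the sources used here, so genes that overlap or have near-identical copies are uncertain.

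Deposited values were multiples of 0.5, and 29.2% were not whole. They were rounded to whole counts, although the tests had been set out for plain counts. Age and cull day were tested together with edgeR 4.0.16 in R 4.3.3 (quasi-likelihood, TMM scaling, filterByExpr by age with a minimum count of 10, Benjamini-Hochberg adjustment over all 12269 genes tested, threshold 0.05). CPM used TMM-scaled totals. Log2 CPM used a prior count of 2. SE was obtained as the size of the log2 fold change over the root of its F statistic. Each mouse is 1 replicate, and that libraries are separate mice rests on the labels. The procedure was tested on simulated data. Alternatives were other scalings, filters, tests (DESeq2 1.42.0, limma 3.58.1), covariates and omitted mice. The covariates were the mean log2 CPM of 43 tested markers (14 each of macrophages, endothelial and stellate cells and 1 of B and plasma cells, no T or NK cell marker having passed the filter), or of 20 acute phase genes. The labels do not set young mice 1184, 1186 and 1188 or old mouse 1187 apart. These mice stood out by their values in these data, so the fits without them are not independent of the data. Leaving out young mice 1184, 1186 and 1188 together with old mouse 1187 was chosen after seeing the data.

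The 9 genes and the lists were chosen with earlier results of these data known. The named genes are the 9, the 3 smallest p in each of 10 lists, a set of anchors (G6pc, Pck1, Igfbp1, Srebf1, Ppargc1a, Trib3, Igf1r and Cebpa, with others not reported here), and the 3 genes most correlated with each of the 9, of which the first is printed. Of the cell marker lists not given elsewhere, edgeR called 0 of 3 tested cholangiocyte markers (0 at an unadjusted p under 0.05, 0 by DESeq2), and the 1 tested B cell marker and the 1 tested neutrophil marker were higher in old mice.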

Additional observations from a re-analysis of the deposited data

Results flagged for a closer look

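Within an age, 24 sets of values over mice were checked for a highest or lowest mouse far from the others, of which chance flags about 1 in 20, and 5 were flagged. Old mouse 1183 held the highest Irs1 level among old mice, at 28.8 CPM, with the next at 21.9 CPM. Old mouse 1189 held the highest Irs2 level among old mice, at 12.9 CPM, with the next at 8.65 CPM. Young mouse 1180 held the highest Foxo3 level among young mice, at 22.4 CPM, with the next at 14.3 CPM. Young mouse 1186 held the highest Trib1 level among young mice, at 72.7 CPM, with the next at 42.6 CPM. Old mouse 1187 held the lowest log2 ratio of Akt2 to Akt1 among old mice, at -0.36, with the next at 0.33.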

How the results depend on the processing

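The falls of Foxo3, Foxo1 and Pik3r1 kept their direction under every alternative run, and their calls in all 19 fits leaving out 1 mouse. The count of genes called for age, 3785, was 450 on the first cull day alone, 2389 on the second and 1399 with the other-cell covariate, and 3014 to 3949 when 1 mouse was left out. Scaling by library totals made 64.2% of the called genes higher against 53.0%. The count of the 9 genes called lower, 3 in edgeR, was 1 with library totals, 1 without the cull day term, 0 on the first and 0 on the second cull day alone, 1 with the other-cell covariate, 5 with the acute phase covariate, and 3 to 3 when 1 mouse was left out. The 1 gene called with the other-cell covariate was Irs2, and Foxo3, Foxo1 and Pik3r1 each lost their call there. The count of genes called for cull day, 1506, was 0 without young mice 1184, 1186 and 1188, and the 9 genes then gave 0 calls. Leaving out 1 mouse gave 609 to 2336 genes and 0 to 3 of the 9. DESeq2 called 10 genes for the interaction. The log2 ratio of Irs2 to Irs1 turned from -0.59 to 0.16 without young mice 1184, 1186 and 1188. Leaving out 1 mouse gave -0.82 to -0.28 for it, -0.19 to -0.047 for Akt2 to Akt1, and 0.28 to 0.47 for Foxo1 to Foxo3. No paired analysis was possible because library numbers are not shared between ages. Smaller groups hold fewer mice, and otherwise the cause of each change was not tested.

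Other changes of sign concerned log2 fold changes that edgeR did not call, except for Lpl, Gab2, Dok1 and Pik3cd. With DESeq2 size factors Irs1 was at -0.0070 and Akt1 at -0.0043. Without the filter Irs1 was at -0.026, Akt1 at -0.029 and Srebf1 at -0.011. With DESeq2 Irs1 was at -0.0066 and Akt1 at -0.0042. With limma-voom Akt1 was at -0.049, Trib1 at 0.020 and Igfbp1 at 0.38. On the first cull day Akt1 was at -0.087 and Srebf1 at -0.0024, and on the second Irs1 was at -0.034 and Igfbp1 at 0.76. With the other-cell covariate Insr was at 0.062, Akt1 at -0.24, Lpl at -0.21, Gab2 at -0.021, Dok1 at -0.41, Pik3cd at -0.13 and G6pc at 0.092. With the acute phase covariate Akt1 was at -0.038. Without young mice 1184, 1186 and 1188 Irs1 was at -0.26, Trib1 at 0.16, Igfbp1 at 0.52 and Srebf1 at -0.20, and in the cull day comparison Akt1 was at 0.010 and Trib1 at 0.16. Without old mouse 1187 Akt1 was at -0.066. Without all 4 mice Irs1 was at -0.23, Trib1 at 0.15, Igfbp1 at 0.55 and Srebf1 at -0.17. Leaving out 1 mouse gave -0.091 to 0.20 for Irs1, -0.066 to 0.057 for Akt1, -0.18 to 0.083 for Trib1, -0.39 to 0.24 for Igfbp1 and -0.035 to 0.12 for Srebf1. For cull day it gave -0.13 to 0.16 for Irs1 and -0.18 to 0.082 for Trib1.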
